A study of Rattus norvegicus with 21 samples.

Results

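TDP-43 knockdown was compared with scrambled siRNA in poly(A) RNA of primary rat astrocytes, the glial cells that take up transmitter, buffer ions and feed neurons. The members are the 6 libraries of these 2 groups, 3 each, of 21 libraries in the series; the others received ATP as well or were the input and bound RNA of an immunoprecipitation. Both groups were cells of Sprague-Dawley rats, harvested from newborn pups, grown in DMEM/F12, used at passages 2 to 3 and transfected with Lipofectamine 3000. The controls received a scrambled small interfering RNA (siRNA), named NegativeControl in the labels, and the knockdown group siRNA against TDP-43. Only 1 TDP-43 siRNA condition is labelled and none in which TDP-43 was restored, so changes caused by the siRNA itself and by loss of TDP-43 cannot be told apart. Whether replicates were separate cultures is not labelled, and p-values then measure the spread between libraries, which may be technical.

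TDP-43, encoded by Tardbp, is a mainly nuclear protein that binds GU-rich stretches of RNA. It represses the use of cryptic exons and polyadenylation sites, steers splicing and keeps many long transcripts stable, and it holds its own mRNA down through a site near the transcript's end. In amyotrophic lateral sclerosis and frontotemporal dementia it leaves the nucleus and aggregates, in glia as well as in neurons.

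Tardbp checks the labels. It stood at 179, 158 and 172 CPM (counts per 1000000 on TMM-scaled library totals) in the scrambled libraries and at 29.6, 20.7 and 24.1 CPM after knockdown, so the groups lay far apart. On the log2 scale the difference was -2.77 (SE 0.13; quasi-likelihood test of edgeR with Benjamini-Hochberg adjustment over all genes, adjusted p = 1.13e-09). All calls below come from that fit, at an adjusted p of at most 0.05, and "rose" and "fell" are used only of genes that passed it. Its estimate of the spread also drew on the 3 knockdown libraries with ATP. Fitted on the 6 compared libraries alone, fewer genes rose and fewer fell, and list counts are not given for that setting. Total gene counts ran from 11485173 to 40286765 per library, which limits the precision of genes with few reads. The scrambled replicate 1 stood apart in the repeat table, where ribosomal RNA took 40.1% of its counts against 82.9 to 96.2% in the other 5 libraries. Astrocyte markers had a summed level of 24440 to 27822 CPM with scrambled siRNA and 19549 to 23878 CPM after knockdown. Most of that sum was the intermediate filament gene Vim, at means of 17560 and 13993 CPM, which did not pass (edgeR adjusted p = 0.118). Of 18 tested markers 2 rose and 8 fell, beside 16.2% and 18.2% of all genes, and Gfap, the astrocyte filament gene, stood at 2489 ± 337 and 2329 ± 475 CPM (SD, n = 3; adjusted p = 0.678). In bulk RNA, fewer cells of a type and less RNA per cell cannot be told apart.

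Of 12096 genes tested, 1956 rose (16.2%) and 2198 fell (18.2%), and these shares are the background for every count below. The groups did not overlap in 41.6% of genes, with 20.7% higher and 20.9% lower after knockdown. Those shares are the background for each statement on overlap. Most changes were small: 1600 rises and 1597 falls were under 2-fold, the median rise was 0.58 and the median fall -0.68 on the log2 scale. Rises of at least 2-fold made up 2.94% of genes and falls of that size 4.97%, and 106 genes rose and 138 fell at least 4-fold. The share of genes called grew with abundance, from 12.3% of 917 genes below a mean of 1 CPM to 38.7% of 6529 genes between 10 and 100 CPM and 39.1% of 110 genes at 1000 CPM or more. In that most abundant tier 36 genes fell and 7 rose. Genes that fell held 33.9 to 35.4% of all counts in the scrambled libraries and 22.7 to 24.2% after knockdown, whereas genes that rose went from 9.49 to 10.1% up to 15.9 to 16.7%. The 100 most abundant genes held 25.9 to 27.7% of counts with scrambled siRNA and 21.9 to 22.5% after knockdown. With total-count scaling, which ignores that shift, the median log2 change of all genes moved from 0.01 to 0.18, and 3427 genes rose and 1436 fell. Directions below are relative to the TMM scale, and the counts with total-count scaling are given for the described lists whose majority direction turned and for some others.

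**Figure D1:**
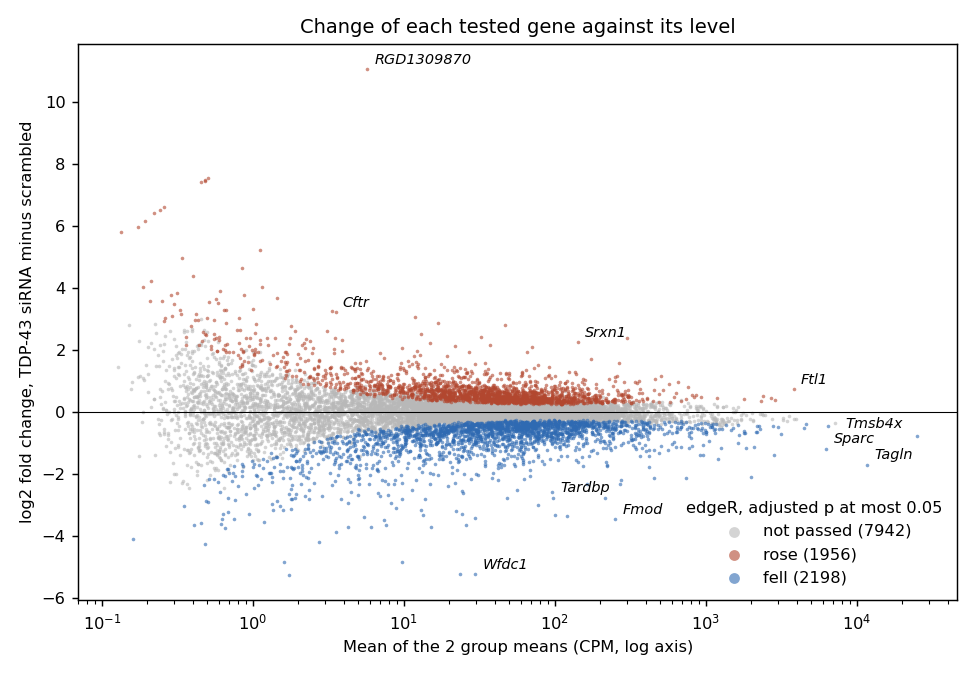
Each point is 1 of 12096 tested genes: its log2 fold change against the mean of the 2 group means in CPM (log axis), red for 1956 rises, blue for 2198 falls and grey for genes that did not pass. Tagln and Tmsb4x lie at the far right below 0, and the points above 5 on the vertical axis are genes with few or no counts in the scrambled libraries, whose fitted values are not bounds.

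Some transcripts are established splicing targets of TDP-43 in mouse and human cells, and their totals are given first; counts per gene do not show which exons were used. Sort1, which encodes the progranulin receptor sortilin, stood at 314, 297 and 330.4 CPM in controls and 172, 165 and 179 CPM after knockdown (log2 -0.87, SE 0.09, edgeR adjusted p = 5.8e-06). Poldip3, encoding a regulator of S6 kinase signalling, went from 171, 139.9 and 129.8 to 70.1, 63.8 and 68.8 CPM (log2 -1.12, SE 0.11, adjusted p = 2.2e-06). Both fell without overlap of the groups, and 20.9% of all tested genes were lower without overlap. Stmn2, in which loss of TDP-43 uncovers a cryptic exon in human neurons, stood at 428, 572 and 535 CPM and 468, 364 and 480.3 CPM, with overlap, and did not pass (adjusted p = 0.221). Sort1 and Poldip3 were named after their values were seen.

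Several of the genes that lost most reads encode proteins of the cytoskeleton and matrix. Tmsb4x, which encodes the actin-sequestering peptide thymosin beta 4, had the most reads of all genes, at 25091, 32286 and 38005 CPM in the scrambled libraries and 19974, 20074 and 16150 CPM after knockdown (log2 -0.76, SE 0.19, edgeR adjusted p = 0.00514). Tagln, encoding the actin-bundling protein transgelin, followed at 17655, 18484 and 17459 CPM and dropped to 6322, 4422 and 5760 CPM (log2 -1.699, SE 0.16, adjusted p = 1.52e-06). For both genes the groups did not overlap, as in 41.6% of all tested genes. Tagln differed little between scrambled replicates (SD 544 CPM) and more between knockdown replicates (SD 976 CPM). Sparc, a collagen-binding matrix protein gene, fell from 8746 to 3858 CPM (log2 -1.18), Thbs1, the gene of the astrocyte-secreted adhesion protein thrombospondin 1, from 4122 to 1565 CPM (-1.397), and Igfbp2, encoding an insulin-like growth factor carrier, from 2862 to 1299 CPM (-1.14). Among genes that gained most reads was Ftl1, the ferritin light chain, at 3186, 3241 and 2199 CPM before and 4630, 5249 and 4488 CPM after knockdown (log2 0.74). The heavy chain gene Fth1 stood at 3746 and 3426 CPM and did not pass (adjusted p = 0.464). Other genes with large gains in reads were the matrix protein gene Ncan (0.52), the hyaluronan receptor gene Cd44 (1.06), the kinetochore gene Zwint (1.15) and the cell cycle gene Ccnd1 (0.91).

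By fold, the largest rises with at least 5 CPM in the higher group and no overlap were led by genes close to silent in controls. Y-linked genes and provisional symbols, such as those beginning LOC or RGD, were left out of this ranking, RGD1309870 of the last section among them. Of all tested genes 42 rose at least 8-fold. Ankrd61, an ankyrin repeat gene, went from 0.458, 1.17 and 0.483 to 7.13, 4.54 and 6.19 CPM (log2 3.25, SE 0.37, adjusted p = 8.19e-06), and Cftr, the chloride channel mutated in cystic fibrosis, from 0.296, 1.07 and 0.965 to 7.79, 6.59 and 4.51 CPM (log2 3.21, SE 0.43, adjusted p = 3.91e-05). Neither gene had a knockdown library below any scrambled one, which the selection required. The neurofilament genes Nefh (2.596) and Nefm (2.31) were in the same set, although 1 scrambled library held Nefm at 3.51 CPM and the others at 0.673 and 0.276. Better counted was Snai1, a transcription factor of epithelial-mesenchymal transition, at 31.4, 22.2 and 27.4 CPM before and 112, 93.6 and 107 CPM after knockdown (log2 1.94, SE 0.13, adjusted p = 3.41e-08). The same set held the stem cell factor gene Kitlg (2.16), the cannabinoid receptor gene Cnr1 (1.96) and the metalloprotease gene Adamts1 (1.92).

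By the same ranking, the largest falls included genes of secreted proteins and of muscle. Fgg, the fibrinogen gamma chain, went from 3.58, 7.61 and 4.41 to 0.373, 0.32 and 0.146 CPM (log2 -4.21), and Sst, encoding the peptide somatostatin, from 10.1, 10.1 and 13.8 to 1.24, 0.128 and 1.06 CPM (-3.71). Acta1, the skeletal muscle actin gene, went from 214, 171 and 166 to 21.2, 14.3 and 19.5 CPM (log2 -3.32, SE 0.16, adjusted p = 1.13e-09), and Cav3, the muscle caveolin gene, from 37.1, 45.1 and 38.7 to 3.81, 3.45 and 5.64 CPM (-3.201, SE 0.19, adjusted p = 1.5e-08). In each of these 4 genes every knockdown library lay below every scrambled one, which the selection required. The set also held the complement protease gene Masp2 (-3.87), the sodium leak channel gene Nalcn (-2.93), the acetylcholinesterase anchor gene Prima1 (-3.301) and the glutathione transferase gene Gstm2 (-2.997), which stood at 143, 147 and 126 CPM in controls and 19.6, 12.7 and 19.4 CPM after knockdown. Reads of actins and of glutathione transferases may be shared between near-identical family members, and how such reads were counted is not given in the sources used here.

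**Figure D2:**
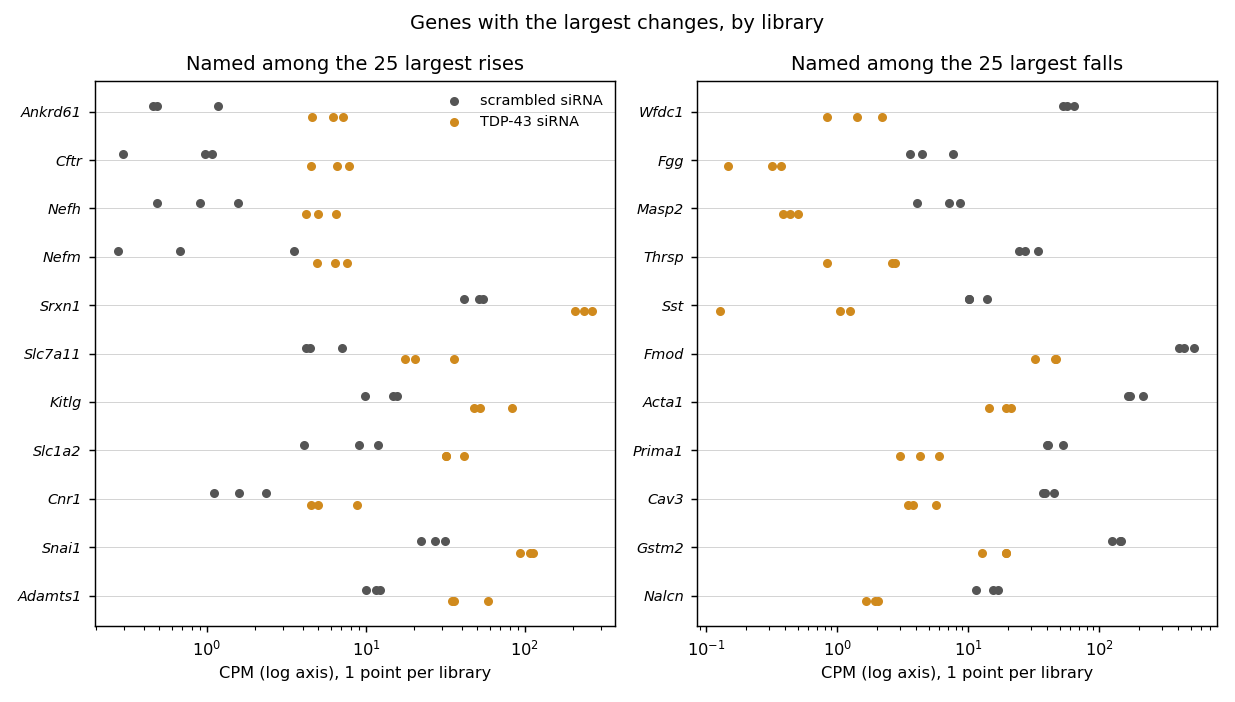
CPM on a log axis, 1 point per library, of the genes named in the text among the 25 largest rises (left) and 25 largest falls (right) with at least 5 CPM in the higher group; grey is scrambled siRNA and orange TDP-43 siRNA. The groups do not overlap in any row, which the selection required. Provisional symbols and Y-linked genes were left out of the ranking.

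NRF2 is the transcription factor that switches on antioxidant genes when its inhibitor KEAP1 is modified by electrophiles; it binds the antioxidant response element as a partner of small MAF proteins. Of 38 tested NRF2 response genes 18 rose and 3 fell, against 16.2% and 18.2% of all genes, and 7 rose at least 2-fold (2.94% of all genes). The median log2 change was 0.29, beside 0.01 for all genes. Earlier results of these data were known when the list was drawn up, and its count is not independent evidence. The summed level of the 38 tested members ran from 11988 to 13885 CPM in controls and from 16272 to 17836 CPM after knockdown. The regulators differed: Nfe2l2, which encodes NRF2, rose from 232, 234 and 233 to 389, 359 and 400.3 CPM (log2 0.72, SE 0.10, adjusted p = 4.67e-05), its partner gene Mafg rose by 0.83, and Keap1 did not pass (-0.16, adjusted p = 0.304). The next genes import cystine and repair peroxiredoxins. Slc7a11, the cystine-glutamate exchanger gene, rose from 4.47, 4.19 and 7.03 to 17.7, 35.6 and 20.3 CPM and Srxn1, the gene of the peroxiredoxin-repairing enzyme sulfiredoxin, from 51.7, 41.3 and 54.3 to 208, 263 and 235 CPM, without overlap. Haem oxygenase 1 (Hmox1), which frees iron from haem, rose from 132 to 398 CPM (log2 1.59), the quinone reductase gene Nqo1 by 0.48, and Gclm, a subunit of the rate-setting enzyme of glutathione synthesis, by 0.32. The 3 members that fell were the glutathione transferase genes Gsta4 (-0.71) and Gstm1 (-0.42) and Ugdh (-0.39), the source of glucuronic acid. Nfe2l2, Mafg, Keap1, Hmox1, Nqo1, Gclm and Trim16 were picked for naming after their values were seen. Without scrambled replicate 1 the list had 5 falls, and Gstm1 did not pass without TDP-43 siRNA replicate 2; Gstm1 and Ugdh did not pass with total-count scaling.

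Promoters of risen members are shown because the response element is the known binding site of NRF2. In the 250 bases before the annotated start (RefSeq, GRCr8 build), the core TGACNNNGC, searched on both strands with N for any base, was present in 8 of 33 list members with a promoter sequence (24.2%) and in 12.4% of 9157 promoters of tested genes. It was present in 3 of 16 risen members (18.8%), 1 of 3 that fell and 4 of 14 that did not pass. A match is a description and not evidence of binding. The 3 risen members with a match are Gstp1 (chr1:210769706-210769955, minus strand), encoding a pi-class glutathione transferase, Trim16 (chr10:47985300-47985549, plus strand), encoding a ubiquitin ligase, and Gclm (chr2:213031885-213032134, plus strand). Capitals mark the match, which starts 61, 164 and 172 bases upstream of the annotated start in that order.
Gstp1: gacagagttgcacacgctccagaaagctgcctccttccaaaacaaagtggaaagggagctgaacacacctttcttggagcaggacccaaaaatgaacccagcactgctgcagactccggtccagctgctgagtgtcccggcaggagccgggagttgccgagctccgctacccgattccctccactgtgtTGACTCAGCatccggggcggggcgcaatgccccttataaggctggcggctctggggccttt
Trim16: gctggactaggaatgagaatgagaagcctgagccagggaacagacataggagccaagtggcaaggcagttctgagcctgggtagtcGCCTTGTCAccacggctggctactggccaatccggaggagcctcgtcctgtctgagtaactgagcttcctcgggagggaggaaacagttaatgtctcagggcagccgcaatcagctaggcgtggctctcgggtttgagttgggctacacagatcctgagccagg
Gclm: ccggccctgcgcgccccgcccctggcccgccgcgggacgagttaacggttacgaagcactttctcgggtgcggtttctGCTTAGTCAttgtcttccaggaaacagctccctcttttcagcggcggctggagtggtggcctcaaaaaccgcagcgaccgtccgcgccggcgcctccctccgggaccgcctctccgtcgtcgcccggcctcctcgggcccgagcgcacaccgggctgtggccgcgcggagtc
Gstp1 stood at 411, 505 and 399.8 CPM in controls and 793, 973 and 821 CPM after knockdown (log2 0.98, SE 0.14, adjusted p = 5.44e-05), Trim16 at 10.1, 3.32 and 10.4 and 14.8, 17.3 and 15.4 CPM (0.93), and Gclm at 50.2, 54.8 and 47.4 and 56.4, 74.3 and 60.1 CPM (0.32). Groups did not overlap in any of the 3, as in 41.6% of all tested genes, and the shift of Gclm was the smallest. Gclm did not pass without any 1 of scrambled replicates 1 and 3 and TDP-43 siRNA replicates 2 and 3 (adjusted p = 0.0518 to 0.205 in the same edgeR test).

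Of 30 genes of enzymes that remove peroxide and superoxide 15 fell and 4 rose, with a median log2 change of -0.40. With total-count scaling 8 fell and 6 rose. Superoxide dismutase genes were among the falls: the extracellular Sod3 dropped from 92.5, 79.01 and 68.2 to 38.1, 39.6 and 43.7 CPM (log2 -0.98, SE 0.12, adjusted p = 1.31e-05) and the cytosolic Sod1, named after its value was seen, from 762 to 520.2 CPM (-0.55). Prdx5, a mitochondrial and peroxisomal peroxiredoxin gene, fell by 0.71, the methionine sulfoxide reductase gene Msrb1 by 0.66 and the mitochondrial glutaredoxin gene Glrx2 by 0.603. Catalase (Cat) rose by 0.45, and so did Oxr1 (0.53) and Sesn2 (0.51), both known from oxidative stress responses. Of 53 detoxification enzyme genes 12 fell and 2 rose. Aldh1a1, which makes retinoic acid, went from 88.8 to 38.7 CPM (log2 -1.200), Cyp1b1 fell by 1.197 and Gstt1 by 1.37, while Por, the electron donor of cytochromes P450, rose by 0.43. Over all 53 detoxification genes the rises numbered 4 without scrambled replicate 2, and with total-count scaling 8 rose and 10 fell. In metal handling, 6 of 33 genes rose and 7 fell: Mt3, the brain metallothionein, went from 486, 631 and 830.5 to 185, 151 and 229.7 CPM (log2 -1.78, SE 0.18, adjusted p = 2.75e-06), and the ferrireductase genes Steap3 (1.11) and Steap2 (-1.11) moved in opposite directions. Of 12 pentose phosphate genes, the source of NADPH, 3 rose, among them Taldo1 (0.71), and 3 fell; there were 6 rises without scrambled replicate 1 and 1 fall when TDP-43 siRNA replicate 1 was left out. Ptgr1, which reduces prostaglandins and lipid aldehydes, rose from 36.1, 64.96 and 46.7 to 136, 146 and 121 CPM (log2 1.46). With total-count scaling 9 metal genes rose and 4 fell, and 6 pentose phosphate genes rose and 1 fell.

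Contractile and actin-anchoring genes fell more often than those of any other list or family tested here. In many cells they are driven by serum response factor (SRF) and myocardin-related coactivators, which sense the pool of free actin. Of 49 tested members 32 fell and 2 rose, 15 of the falls being at least 2-fold (4.97% of all genes), and the median log2 change was -0.63. The summed level of the 49 tested members ran from 46549 to 49033 CPM in controls and from 20668 to 25288 CPM after knockdown. Tagln alone made up means of 17866 and 5502 CPM of these sums. Acta2, the smooth muscle actin gene, stood at 4004, 2797 and 2861 CPM and then at 906, 561 and 787 CPM (log2 -2.100, SE 0.18, adjusted p = 6.17e-07), and Actc1, the cardiac actin gene, at 466, 515 and 365 and 112, 62.1 and 94.5 CPM (-2.32). Both dropped without overlap, as did 20.9% of all tested genes. The myosin genes Myl9 (-1.52), Myh11 (-1.69) and Myh10 (-1.16), the tropomyosin genes Tpm1 (-1.15) and Tpm2 (-1.23), calponin 1 (Cnn1, -1.09), vinculin (Vcl, -1.04) and filamin A (Flna, -0.697) fell as well. Tpm3, another tropomyosin gene, went from 239, 169 and 176 up to 378, 391 and 381 CPM (log2 0.98, SE 0.13, adjusted p = 2.73e-05), and without TDP-43 siRNA replicate 2 the list had 1 rise. The regulator Srf stood at 101 and 95.7 CPM and did not pass (adjusted p = 0.565). Myh10, Tpm2, Cnn1, Vcl and Srf were named after their values were seen.

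Smooth muscle genes also mark mural cells, so that list is given beside these. Of 18 markers of fibroblasts, mural and endothelial cells 15 were tested, 2 rose and 8 fell, and their summed level went from 21761 to 23196 CPM in controls to 5888 to 8445 CPM after knockdown. Most of that sum was Tagln and Acta2, which both lists hold. Of the others Pdgfrb, the mural platelet-derived growth factor receptor, fell from 134 to 75.6 CPM (log2 -0.82) and Kdr, an endothelial receptor gene, from 9.68 to 2.92 CPM (-1.72), while Col3a1 did not pass (-0.195, adjusted p = 0.253). The endothelial gene Pecam1 was near 0, at 1.72, 1.07 and 0.138 CPM in controls and 1.08, 0.512 and 0.546 CPM after knockdown. Without TDP-43 siRNA replicate 2 the list had 5 falls, and without any 1 of the other 5 libraries its 2 rises were 0 or 1. The part of other cell types in the fall of contractile genes was not tested. Pdgfrb and Pecam1 were named after their values were seen.

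The promoters of fallen contractile genes are shown for the CArG box, the sequence SRF binds. It was found in 4 of 38 list members with a promoter sequence (10.5%), searched in the same 250 bases on both strands. These were 3 of 23 members that fell and 1 that did not pass (7.69% of such members). Of all promoters of tested genes 1.14% held it, with 1.28% for genes that fell and 1.05% for genes that rose. Whether the box goes with a fall within the list was not tested. The carriers among fallen list members were Ldb3 (chr16:9924680-9924929, minus strand), a Z-disc protein gene, Fhl1 (chrX:139638246-139638495, plus strand) and Fhl2 (chr9:52954541-52954790, minus strand), 2 LIM domain genes. Capitals mark the box, which starts 52, 102 and 95 bases upstream.
Ldb3: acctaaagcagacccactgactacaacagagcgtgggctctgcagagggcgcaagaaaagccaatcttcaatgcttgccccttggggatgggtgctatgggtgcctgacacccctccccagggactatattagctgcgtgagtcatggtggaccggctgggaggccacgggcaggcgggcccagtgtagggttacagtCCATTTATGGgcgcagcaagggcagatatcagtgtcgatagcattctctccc
Fhl1: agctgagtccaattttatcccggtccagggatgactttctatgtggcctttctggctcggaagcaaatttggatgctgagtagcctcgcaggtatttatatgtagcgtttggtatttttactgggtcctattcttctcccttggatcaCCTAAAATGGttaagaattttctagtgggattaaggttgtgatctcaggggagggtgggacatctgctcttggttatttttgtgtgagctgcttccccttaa
Fhl2: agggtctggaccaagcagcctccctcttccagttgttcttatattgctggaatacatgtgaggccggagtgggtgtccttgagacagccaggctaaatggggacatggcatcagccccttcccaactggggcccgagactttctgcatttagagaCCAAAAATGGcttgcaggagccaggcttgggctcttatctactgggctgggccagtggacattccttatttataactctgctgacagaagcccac
Fhl1 stood at 1435, 1298 and 1217 CPM in controls and 536, 452 and 521 CPM after knockdown (log2 -1.39, SE 0.12, adjusted p = 6.07e-07), Ldb3 at 4.85, 7.71 and 5.03 and 1.95, 1.92 and 1.601 CPM (-1.67), and Fhl2 at 40.9, 49.4 and 48.8 and 31.6, 24.4 and 34.5 CPM (-0.61). None of the 3, which were named for the box in their promoters, had overlapping groups, as in 41.6% of all tested genes. They were drawn from members that had passed as falls.

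**Figure D3:**
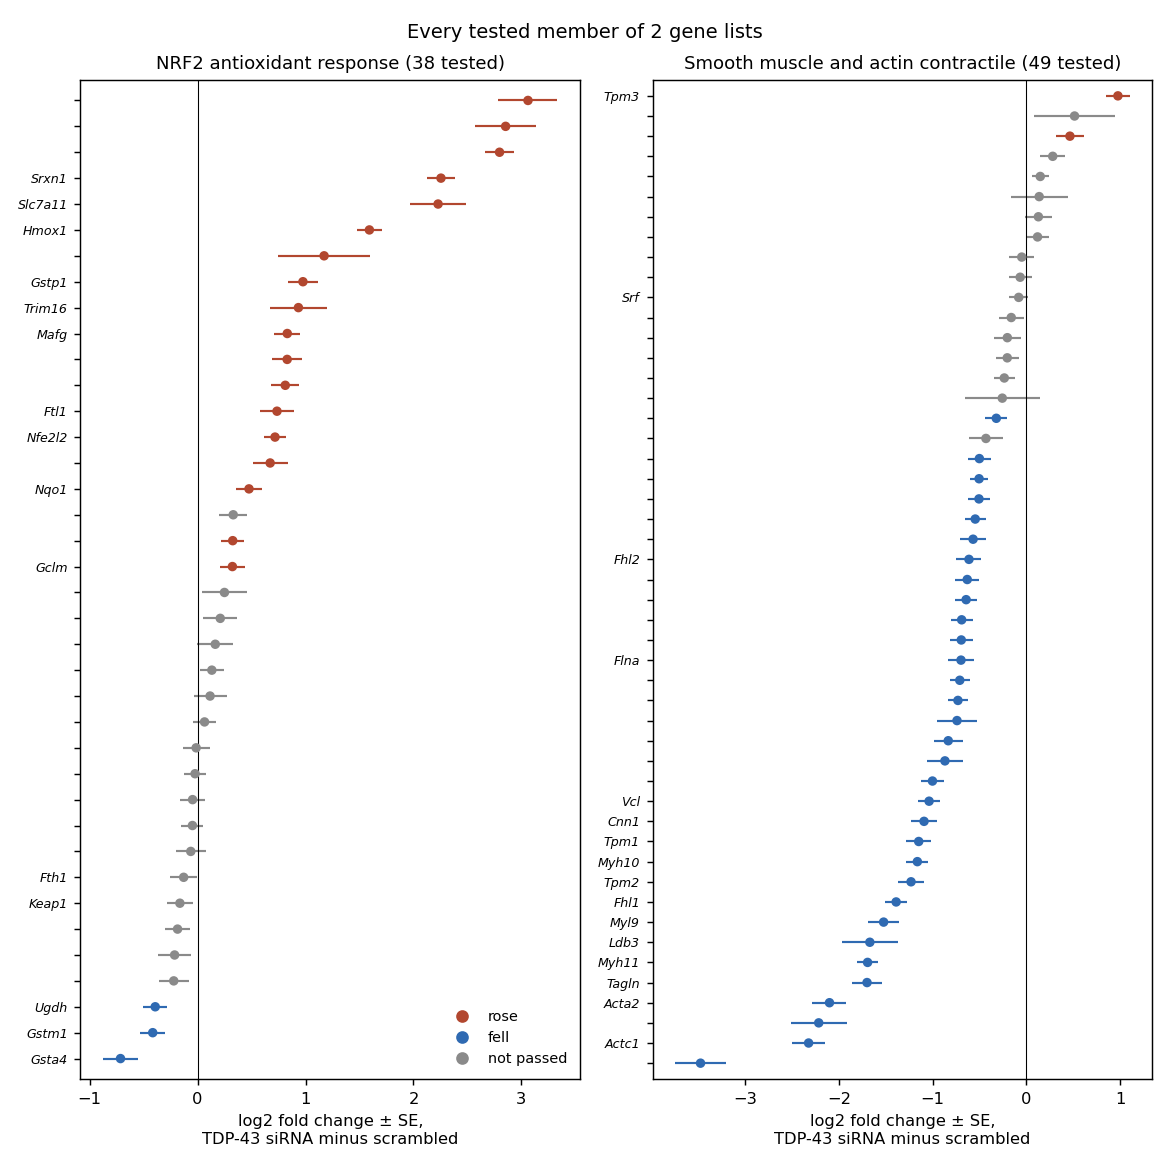
Log2 fold change with its standard error (bars) for each tested member of the NRF2 list (left, 38 genes) and of the contractile list (right, 49 genes); red rose, blue fell, grey did not pass, and genes named in the text are labelled. The left panel has 18 red and 3 blue points, the right panel 2 red and 32 blue.

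YAP and TAZ are coactivators that sense cell spreading and act through TEAD factors, and the Hippo kinases hold them in the cytoplasm. Of 30 genes of the pathway and its targets 17 fell and 4 rose (median log2 -0.35). Classical targets that fell were Ctgf, from 692, 687 and 706 to 371, 270.5 and 322 CPM (log2 -1.11, SE 0.12, adjusted p = 4.72e-06), Ankrd1, from 35.5, 38.1 and 33.3 to 11.97, 13.6 and 13.1 CPM (-1.47) and Cyr61, named after its value was seen, by 0.73. The Hippo kinase gene Stk3 (encoding MST2) fell too, from 30.4, 24.1 and 26.5 to 11.1, 8.89 and 8.63 CPM (log2 -1.51, SE 0.15, adjusted p = 2.76e-06). The 4 rises were Mob1b (0.88), Tead1 (0.53), Yap1 (0.38) and Tead2 (0.38), each with overlapping groups. Their number rested on single libraries, being 1 or 2 without scrambled replicate 1 or 2 or TDP-43 siRNA replicate 1 or 2. The TEAD motif GGAATG lay in 8 of 20 promoters of the list and in 10.2% of all promoters of tested genes. It lay in 4 of 11 promoters of members that fell and 2 of 2 of members that rose.

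Matrix and the enzymes that cut it changed in the same comparison. Basement membrane and integrin genes fell in 16 of 34 cases and rose in 1 (median log2 -0.55), led by the collagen receptor genes Itga1 (12.2, 17.7 and 29.9 to 4.85, 4.22 and 3.86 CPM, log2 -2.19) and Itga11 (39.3, 35.02 and 46.5 to 13.5, 7.16 and 9.32 CPM, -2.002). Scrambled replicate 3 was highest for both. Of 49 fibrillar collagen and fibre assembly genes 26 fell and 6 rose, with Fmod, a collagen-binding proteoglycan gene, at 527, 406 and 445 CPM before and 45.7, 32.2 and 46.9 CPM after knockdown. Prelp (-1.67) and Mfap2 (-1.12), both of elastic or collagen fibres, fell, and Loxl4 (1.23), a collagen crosslinking enzyme gene, and Col5a3 (0.77) rose. Without TDP-43 siRNA replicate 1 that list had 2 rises, and the basement list had none without scrambled replicate 1 and 4 without scrambled replicate 3. Extracellular proteases and their inhibitors fell in 34 of 68 cases and rose in 4 (median log2 -0.52). Wfdc1, a secreted protease inhibitor gene, went from 52.98, 56.6 and 64.6 to 2.196, 0.832 and 1.42 CPM (log2 -5.23, SE 0.24, adjusted p = 1.13e-09). The urokinase gene Plau went from 334, 218 and 261 to 57.3, 57.7 and 46.6 CPM (log2 -2.33), and Serpinf1, encoding the neurotrophic protein PEDF, from 448, 519 and 378 to 85.02, 72.7 and 136 CPM (-2.19). Adamts1, Adamts9 (1.29) and Mmp2 (0.99), which cut proteoglycans and collagen, rose.

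Proteoglycan and hyaluronan genes moved both ways, 9 of 55 rising and 14 falling. Among the rises were the hyaluronan synthase gene Has2, from 4.42, 6.34 and 4.48 to 10.1, 14.3 and 9.75 CPM (log2 1.18), the hyaluronan receptor gene Cd44, from 331, 274 and 293 to 594, 674 and 611 CPM (1.06, SE 0.11, adjusted p = 4.54e-06), and the hyaluronan-binding lectican gene Vcan, from 138, 163 and 175 to 379, 349 and 309 CPM (1.13, SE 0.12, adjusted p = 3.77e-06). Among the falls were the heparan sulfate core protein gene Gpc4 (633 to 273 CPM, log2 -1.21), the sulfotransferase gene Hs6st1 (-1.46) and the sulfatase gene Sulf1 (-1.55). With total-count scaling 12 rose and 7 fell, and the list median changed sign.

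**Figure D4:**
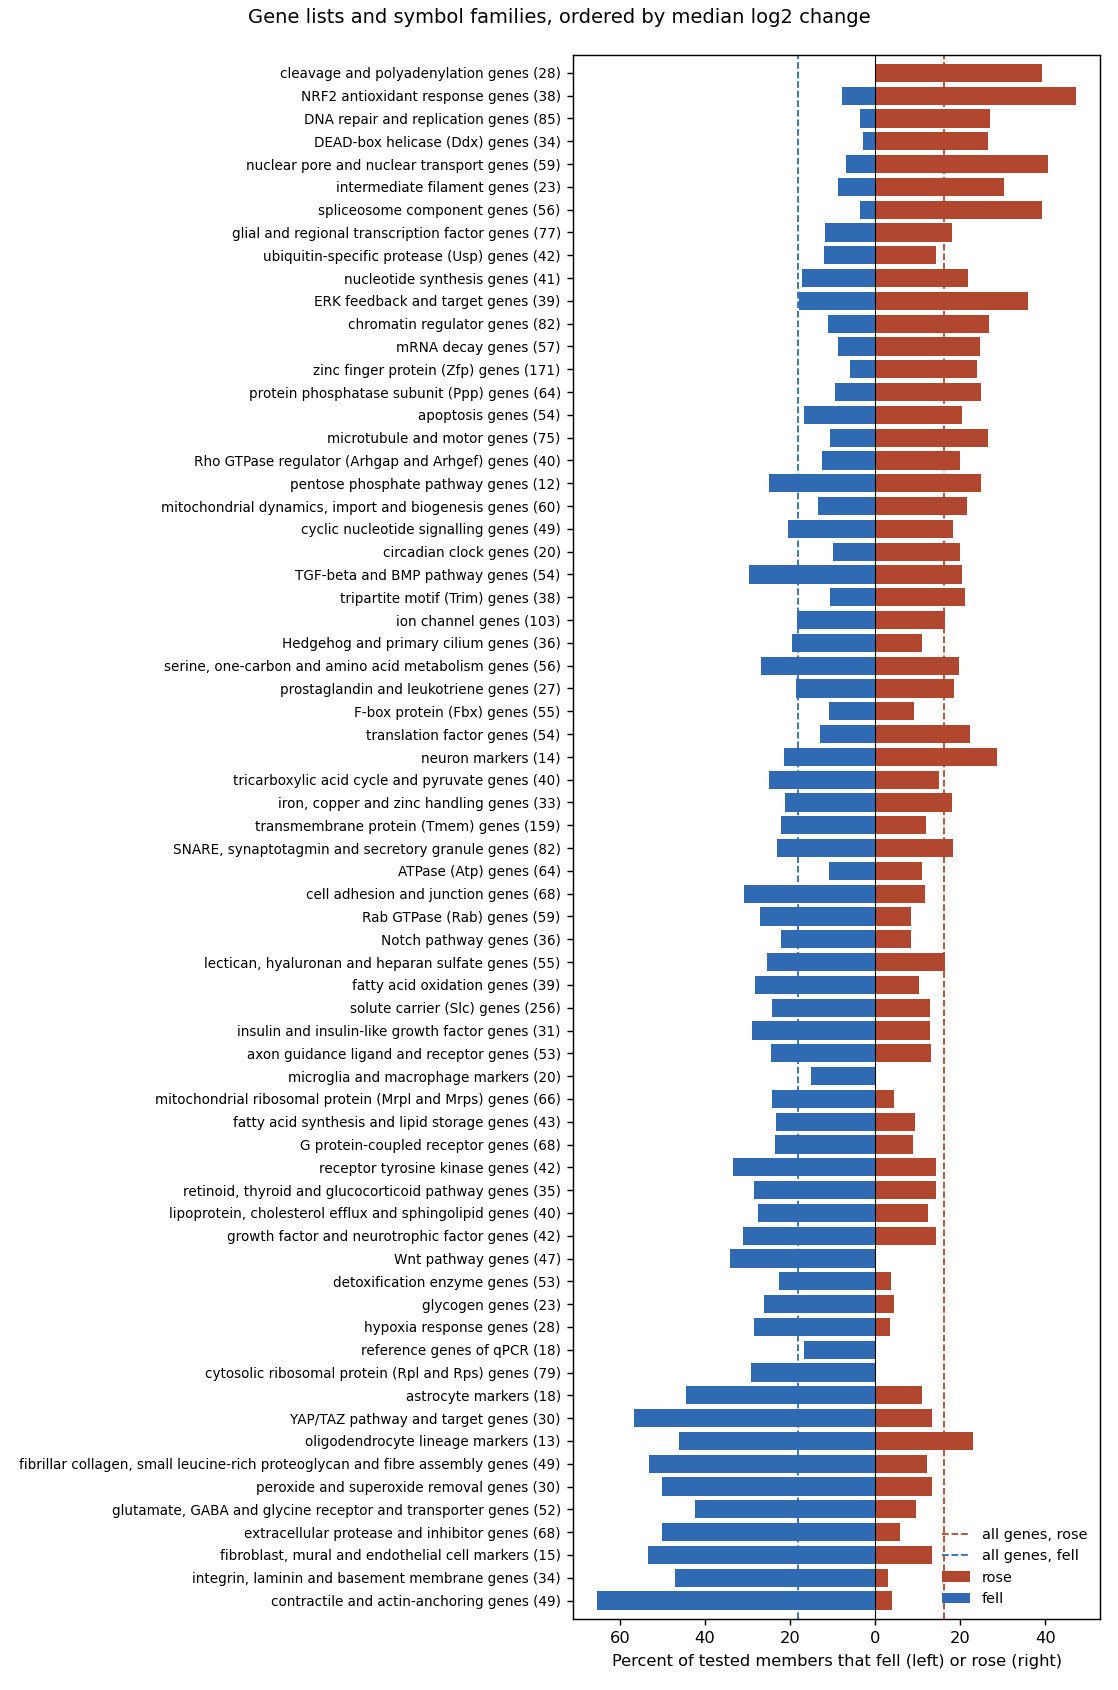
Percent of tested members that rose (red, right) or fell (blue, left) in each gene list and symbol family, ordered by median log2 change, with the number of tested members in parentheses; dashed lines mark 16.2% and 18.2% of all genes. Cleavage and polyadenylation and NRF2 genes lie at the top, contractile and basement membrane genes at the bottom.

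Signalling genes were read by pathway. No Wnt gene rose in the edgeR test (4 at an unadjusted p below 0.05, 1 by DESeq2) and 16 of 47 fell (median log2 -0.19): the ligand gene Wnt7a, which supports brain vessels, went from 90.8, 77.9 and 84.7 to 25.4, 19.96 and 29.95 CPM (log2 -1.75, SE 0.13, adjusted p = 1.95e-07), the receptor gene Fzd4 from 25.4, 28.1 and 27.4 to 6.26, 6.84 and 6.697 CPM (-2.03, SE 0.16, adjusted p = 2.77e-07) and the secreted antagonist gene Sfrp2 by -2.699. The knockdown libraries lay below every control in all 3, which were named for large falls, as in 20.9% of all tested genes. Without each of scrambled replicates 1, 2 and 3 and TDP-43 siRNA replicate 3 in turn, 1 Wnt gene rose. In the Notch pathway 3 of 36 rose and 8 fell, Notch1 (219, 310.4 and 325 to 465, 434 and 415 CPM, log2 0.62) and Notch3 (59.8, 79.6 and 72.6 to 19.7, 23.1 and 22.3 CPM, -1.700) in opposite directions; Adam10, the protease that releases Notch, fell by 1.22. Of 54 TGF-beta and BMP genes 11 rose and 16 fell, or 15 and 12 with total-count scaling. The BMP targets Id1 and Id4 rose by 0.58 and 0.69, and the TGF-beta target Tgfbi by 1.25, while Ltbp2, a matrix anchor, went from 1111, 1151 and 1355 to 339, 210.4 and 271 CPM (log2 -2.14, SE 0.16, adjusted p = 1.14e-07) and Bmp6 from 107 to 36.1 CPM (-1.57). Id1 and Id4 were named after their values were seen. Id3, of the same family and list, stood at 1240 and 1381 CPM and did not pass (log2 0.16, edgeR adjusted p = 0.365). Total-count scaling changed the sign of the Notch median and gave 7 rises and 8 falls.

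Of 42 growth factor genes, several of which astrocytes supply to neurons and vessels, 13 fell, 6 rose and 23 did not pass; with total-count scaling 9 rose and 9 fell. Cntf, the ciliary neurotrophic factor gene, went from 91.1, 92.95 and 122 to 26.4, 19.4 and 22.2 CPM (log2 -2.17, SE 0.14, adjusted p = 3.36e-08). The groups lay far apart, with scrambled replicate 3 highest. Pdgfb (-1.400) and Metrnl (-0.95) fell too, whereas Kitlg rose from 14.9, 9.85 and 15.6 to 52.5, 83.3 and 47.6 CPM and Angptl4, encoding a lipase inhibitor, rose by 0.69. Of 42 receptor tyrosine kinase genes 14 fell and 6 rose; the epidermal growth factor receptor gene Egfr went from 22.1, 34.04 and 47.2 to 15.7, 15.7 and 14.5 CPM (log2 -1.16) and Fgfr3, an astrocyte receptor, from 428 to 234 CPM (-0.87). Those 6 rises were 2 without scrambled replicate 1 or TDP-43 siRNA replicate 1 and 3 without TDP-43 siRNA replicate 2. ERK feedback and target genes rose in 14 of 39 cases and fell in 7 (median log2 0.18), with rises of the transcription factor genes Etv1 (0.96) and Etv4 (0.83), of Spred2 (1.001), which restrains the pathway, and of Ccnd1 from 461, 326 and 396 to 629, 887 and 714 CPM. There were 6 rises in this list without TDP-43 siRNA replicate 2. Mapk3, the gene of the kinase ERK1, fell from 242 to 125 CPM (log2 -0.95). Of 31 insulin-like growth factor genes 9 fell and 4 rose, Igfbp7 falling by 1.17 and Igfbp3 rising by 0.61; with total-count scaling that list had 8 rises and 7 falls, the receptor kinases 7 and 9, and both medians changed sign.

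Among G protein-coupled receptors 6 of 68 rose and 16 fell. Bdkrb2, the bradykinin receptor gene, rose from 5.44, 5.56 and 7.93 to 16.9, 20.7 and 17.9 CPM (log2 1.56) and Lpar1, a receptor of lysophosphatidic acid, by 0.84. The astrocyte receptor gene Gpr37l1 fell from 77.5, 65.7 and 62.95 to 21.2, 20.1 and 29.5 CPM (log2 -1.54), the PACAP receptor gene Adcyap1r1 by 1.16 and the sphingosine phosphate receptor gene S1pr3 by 1.12. Cyclic nucleotide genes rose in 9 and fell in 10 of 49 cases, with Akap12, a scaffold of protein kinase A, at 699 CPM before and 278 CPM after (log2 -1.33); there were 6 falls without TDP-43 siRNA replicate 1, and 14 rises and 6 falls with total-count scaling. Nuclear hormone genes rose in 5 and fell in 10 of 35, or 7 and 8 with total-count scaling: the vitamin D receptor gene Vdr went from 32.4, 24.2 and 42.6 to 8.99, 4.67 and 5.06 CPM (log2 -2.397, SE 0.25, adjusted p = 3.5e-06) and the retinoid-responsive gene Rarres2, encoding chemerin, from 30.7, 45.1 and 51.99 to 6.92, 6.52 and 7.24 CPM (-2.61). Fkbp5, a glucocorticoid target, rose by 0.85. The median of the G protein-coupled receptors changed sign with total-count scaling.

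Astrocytes clear glutamate and GABA. Of 52 transporter, receptor and enzyme genes for amino acid transmitters 22 fell and 5 rose (median log2 -0.41). The 2 main glutamate transporters moved in opposite directions: Slc1a2 (GLT-1) went from 4.09, 8.97 and 11.9 to 31.99, 41.3 and 32.03 CPM (log2 2.14, SE 0.27, adjusted p = 1.93e-05) and Slc1a3 (GLAST), named after its value was seen, from 1026, 867 and 1039 to 504, 619.9 and 587 CPM (-0.78, SE 0.12, adjusted p = 0.000176). In both genes the groups were separate, as in 41.6% of all tested genes. Of genes of GABA turnover, Abat, which breaks GABA down, fell from 24.1, 18.05 and 20.3 to 5.801, 6.97 and 7.32 CPM (log2 -1.65) and Gad1, which makes it, from 5.44 to 2.05 CPM (-1.41). The AMPA receptor gene Gria3 fell by 1.09 and the metabotropic receptor gene Grm5 rose by 1.42. Of other astrocyte genes, the water channel gene Aqp4 went from 999, 898 and 954 to 411, 436 and 445 CPM (log2 -1.14, SE 0.11, adjusted p = 2.49e-06) and Mlc1, of the same endfoot membrane, from 545, 405 and 485 to 184, 182 and 259 CPM (-1.201). The bicarbonate cotransporter gene Slc4a4 rose by 0.84.

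Of 103 ion channel genes 17 rose and 19 fell, near the background of both directions; with total-count scaling 28 rose and 12 fell. The potassium channel gene Kcna6 rose from 6.03, 4.58 and 7.17 to 19.4, 15.4 and 19.8 CPM (log2 1.604) and Ano6, encoding a scramblase, by 1.002; Kcnip1 (-2.58) and Scn7a (-1.23) fell. Without TDP-43 siRNA replicate 1 there were 11 rises. Adhesion and junction genes fell in 21 of 68 cases and rose in 8. Lsamp, a neural adhesion protein gene, went from 22.96, 28.7 and 21.9 to 7.38, 7.29 and 8.298 CPM (log2 -1.67) and Nrcam from 56.9, 62.4 and 60.95 up to 119, 139.9 and 126 CPM (1.09); the rises numbered 5 without scrambled replicate 2 or TDP-43 siRNA replicate 2. Axon guidance genes rose in 7 and fell in 13 of 53: Slit2, a repellent, dropped from 89.4 to 31.98 CPM (log2 -1.48) and Sema5b by 1.72. Secretory genes rose in 15 and fell in 19 of 82. The fusion protein genes Snap23 (1.07) and Vamp7 (1.03) rose, whereas the granule protein genes Scg2 (-1.31), Scg5 (-1.25) and Chgb (-1.55) fell; without TDP-43 siRNA replicate 1 there were 9 rises. With total-count scaling the rises and falls were 13 and 15 for adhesion, 10 and 11 for guidance and 20 and 13 for secretion, and the 3 medians changed sign.

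Lipid genes were read in 3 lists. Lipoprotein and sphingolipid genes fell in 11 and rose in 5 of 40, the chaperone gene Clu going from 505, 603 and 489.96 to 257, 188 and 323 CPM (log2 -1.05) and the clearance receptor gene Lrp2 falling by 1.68; Lcat, which esterifies cholesterol on lipoproteins, went up from 266, 281 and 288 to 454, 404 and 524 CPM (0.73, SE 0.11, adjusted p = 0.000139). Fatty acid synthesis and storage genes fell in 10 and rose in 4 of 43. Thrsp, a regulator of lipogenesis, went from 26.9, 33.9 and 24.3 to 2.61, 0.832 and 2.77 CPM (log2 -3.71) and Acly, which supplies acetyl-CoA, fell by 0.71. Fatty acid oxidation genes fell in 11 and rose in 4 of 39; without TDP-43 siRNA replicate 1 there were 6 falls and 2 rises. With total-count scaling the direction turned, to 11 rises and 6 falls for synthesis and 8 and 4 for oxidation, and the lipoprotein list had 8 and 9. Hypoxia response genes fell in 8 of 28 cases and rose in 1 (median log2 -0.21), and Car9, a carbonic anhydrase gene used as a hypoxia marker, went from 97.5, 79.5 and 75.3 to 14.8, 10.6 and 11.8 CPM (log2 -2.76, SE 0.15, adjusted p = 4.05e-09). The single rise was lost without TDP-43 siRNA replicate 2, and 2 genes rose without scrambled replicate 1. Pdk1, which diverts pyruvate from the mitochondrion, fell by 1.25 and Arnt, the partner of hypoxia-inducible factors, by 0.98.

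Lists of nuclear RNA handling held more rises than falls. Of 28 cleavage and polyadenylation genes 11 rose and none fell (median log2 0.29), against 16.2% and 18.2% of all genes; the falls were 0 in the edgeR test, also at an unadjusted p below 0.05, and 0 by DESeq2. Cpsf2, a subunit of the complex that cuts the transcript, went from 47.7, 39.6 and 50.9 to 92.7, 99.5 and 83.3 CPM (log2 0.99, SE 0.11, adjusted p = 7.77e-06). There were 7 rises without TDP-43 siRNA replicate 1 or 2, and 1 fall without scrambled replicate 3 or TDP-43 siRNA replicate 2. Spliceosome genes rose in 22 of 56 cases and fell in 2 (median log2 0.23). The U2 protein gene Snrpa1 went from 48.8, 62.03 and 56.9 to 124, 134 and 125 CPM (log2 1.197, SE 0.11, adjusted p = 9.28e-07), Rbm22 of the activated spliceosome from 41.8, 31.99 and 36.7 to 84.98, 83.2 and 82.6 CPM (1.17), and Snrpb2, whose protein pairs with that of Snrpa1 on U2, went down from 42.5, 51.99 and 45.1 to 19.97, 19.8 and 15.3 CPM (-1.34, SE 0.14, adjusted p = 3.76e-06). Replicates were close in all 3 genes. Without scrambled replicate 1, 4 spliceosome genes fell.

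Nuclear pore and transport genes rose in 24 of 59 cases and fell in 4 (median log2 0.23). Pom121, a membrane-anchored pore protein gene, went from 47.2, 55.1 and 67.7 to 131, 126 and 118 CPM (log2 1.15, SE 0.13, adjusted p = 5.8e-06) and the scaffold genes Nup93 (0.72) and Nup107 (0.68) rose. Nup210, the other membrane pore protein described here, went from 25.7, 21.4 and 25.7 to 10.2, 10.9 and 9.06 CPM (log2 -1.28) and the tRNA exporter gene Xpot fell by 1.11; there were 2 falls without scrambled replicate 3. DNA repair and replication genes rose in 23 of 85 cases and fell in 3 (median log2 0.24), among them the helicase gene Mcm8 (1.03), the break sensor gene Mre11a (0.95) and the uracil glycosylase gene Ung (0.86). Parp3, of break repair, fell by 0.69. Without TDP-43 siRNA replicate 1 that list had 13 rises, and without TDP-43 siRNA replicate 1 or 2 it had 1 fall. Chromatin regulators rose in 22 and fell in 9 of 82. Related subunits of the SWI/SNF remodeller moved in opposite directions: Smarcd1 went up from 39.01, 30.7 and 36.1 to 85.1, 82.3 and 91.5 CPM (log2 1.28, SE 0.11, adjusted p = 4.9e-07) and Smarcd3 down from 129, 111 and 98.8 to 60.1, 48.9 and 65.4 CPM (-0.96, SE 0.13, adjusted p = 3.09e-05). The histone methyltransferase gene Ezh1 (1.28) and the demethylase gene Kdm2a (1.17) rose.

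Of 57 mRNA decay genes 14 rose and 5 fell. Btg1, an adaptor of deadenylation that also slows proliferation, went from 36.4, 42.2 and 42.1 to 111, 115 and 117 CPM (log2 1.51, SE 0.10, adjusted p = 3.41e-08), and Lsm4, of the ring that binds shortened messages, dropped from 155 to 76.1 CPM (-1.02). The rises numbered 7 without TDP-43 siRNA replicate 1 and 8 without TDP-43 siRNA replicate 2. The zinc finger family (symbols beginning Zfp) had 41 rises and 10 falls among 171 genes, or 26 and 24 rises without TDP-43 siRNA replicate 1 and 2 in turn, and the DEAD-box helicases 9 rises and 1 fall among 34, or 16 rises without scrambled replicate 1; the single fall was lost without scrambled replicate 1 or TDP-43 siRNA replicate 1 or 2. Of 79 cytosolic ribosomal protein genes 56 did not pass, none rose in the edgeR test (1 at an unadjusted p below 0.05, 0 by DESeq2) and 23 fell, with a median log2 change of -0.31; with total-count scaling 3 rose and 10 fell. Rpl7 stood at 1696, 2626 and 2188 CPM in controls and 1068, 1173 and 992 CPM after knockdown (log2 -1.01, SE 0.16, adjusted p = 0.000177). The count depended on single libraries, with 50 falls without scrambled replicate 1, 14 without scrambled replicate 2 and 10 when TDP-43 siRNA replicate 3 was left out, and with 1 or 2 rises without scrambled replicate 2 or 3 or TDP-43 siRNA replicate 2. Ribosomal protein genes have many processed pseudogenes, with which reads may be shared. Translation factors rose in 12 and fell in 7 of 54: the helicase gene Eif4a1 rose by 0.49 and its paralog Eif4a2 went from 389.6, 374 and 511 to 225, 243 and 216 CPM (log2 -0.898, SE 0.12, adjusted p = 4.1e-05). There were 11 falls without scrambled replicate 3, and 3 when TDP-43 siRNA replicate 1 was left out.

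**Figure D5:**
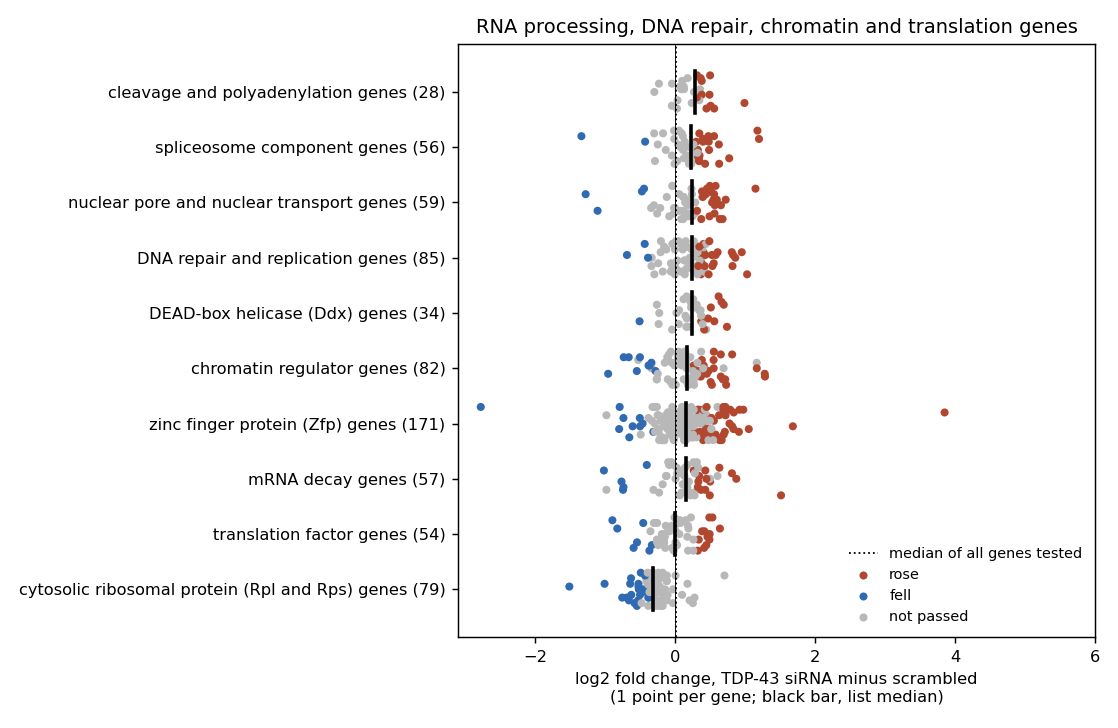
Log2 fold change (horizontal axis) of each tested gene in 10 lists and families, 1 point per gene, red for rises, blue for falls and grey for genes that did not pass; black bars are list medians and the dotted line the median of all genes, 0.01. Medians of the upper 8 rows lie between 0.15 and 0.29, that of ribosomal proteins at -0.31.

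Microtubule and motor genes rose in 20 and fell in 8 of 75. The kinesin heavy chain genes split: Kif5a rose from 1.78, 4.097 and 2.34 to 7.67, 5.44 and 6.77 CPM (log2 1.37) and Kif5c dropped from 40.5, 45.3 and 51.6 to 22.04, 23.9 and 18.4 CPM (-1.096, SE 0.13, adjusted p = 1.54e-05). Without TDP-43 siRNA replicate 1 or 2 there were 11 rises and 5 falls. Intermediate filament genes rose in 7 and fell in 2 of 23 cases, with 4 falls without scrambled replicate 1, and 1 when TDP-43 siRNA replicate 2 or 3 was left out. Vim, with the most reads of them, stood at 17560 and 13993 CPM (adjusted p = 0.118). Mitochondrial genes other than those of respiration rose in 13 and fell in 8 of 60: the chaperonin gene Hspd1 went from 224, 204 and 157 to 295, 358 and 306 CPM (log2 0.71), Mfn1, of mitochondrial fusion, rose by 0.64, and Pink1, of damaged mitochondria, fell by 1.04. There were 7 rises without TDP-43 siRNA replicate 2. Amino acid and one-carbon genes rose in 11 and fell in 15 of 56, or 17 and 8 with total-count scaling, the serine hydroxymethyltransferase gene Shmt1 rising by 1.11 and Aldh1l2 falling by 1.02. Of 20 genes of the circadian clock 4 rose and 2 fell, Arntl (BMAL1) rising by 0.84 and its output gene Dbp falling by 0.77.

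Glial and regional transcription factors rose in 14 and fell in 9 of 77, the falls being 3 to 5 without scrambled replicate 3 or any 1 of the TDP-43 siRNA libraries. Nfib, a gliogenic factor gene, went from 14.1, 54.8 and 41.9 to 105, 100.1 and 71.1 CPM (log2 1.36), Foxj1, of motile cilia, fell by 0.85, and Sox2 did not pass (0.14, adjusted p = 0.4). The oligodendrocyte lineage factors Olig2 and Olig1 rose by 0.98 and 0.65, and Sox10 fell from 11.9, 6.05 and 10.96 to 3.31, 1.41 and 3.49 CPM (log2 -1.799); over 13 tested markers of that lineage 3 rose and 6 fell, and the summed level was 369 to 451 CPM in controls and 326 to 401 CPM after knockdown. Microglia markers summed to 641 to 736 CPM and 501 to 593 CPM, with 3 falls and no rise among 20 in the edgeR test (0 rises at an unadjusted p below 0.05 and by DESeq2), the falls being 1 without TDP-43 siRNA replicate 2. Neuron markers summed to 526 to 665 CPM and 483 to 590 CPM, and most of that sum was Stmn2, given above as a splicing target of TDP-43. Of the 14 tested, 4 rose, 3 of them neurofilament genes, and 3 fell. Medians of the microglia and neuron lists changed sign with total-count scaling. These sums overlapped between the groups for neurons and the oligodendrocyte lineage and not for microglia, and their part in the results above was not tested. Of 18 reference genes of quantitative PCR none rose (0 also at an unadjusted p below 0.05 and by DESeq2) and 3 fell in the edgeR test. The falls were 5 without scrambled replicate 1 or 3 and 1 without TDP-43 siRNA replicate 1 or 3, and there was 1 rise without scrambled replicate 2; with total-count scaling 1 rose and 1 fell.

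Repeat elements in the same poly(A) libraries changed little by the same test. Of 1137 tested, 1 rose (0.088%) and 2 fell (0.176%). MLT1H, a long terminal repeat of an old mammalian retrotransposon group, stood at 41.8, 40.01 and 41.8 CPM in controls and at 80.7, 99.996 and 104 CPM after knockdown (log2 1.204, edgeR adjusted p = 0.00713). ORSL, a DNA transposon, went from 64.1, 30.6 and 26.5 to 7.35, 6.33 and 6.39 CPM (log2 -2.59, adjusted p = 0.00713), and RNIAP1b, a rat element of the intracisternal A particle group, from 39.0, 18.3 and 27.4 to 8.04, 6.63 and 9.40 CPM (-1.81, adjusted p = 0.0207). For both falling elements scrambled replicate 1, the library with little ribosomal RNA in this table, was the highest. At an unadjusted p below the same threshold 48 elements rose and 90 fell. Ribosomal RNA came to 3.28 counts per 100 gene counts in scrambled replicate 1, to 238 and 309 in the other controls and to 45.4 to 196 after knockdown, and its part in the repeat results was not tested beyond a fit without ribosomal RNA elements, which gave the same counts of 1 and 2.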

How the data were processed

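The deposited tables hold raw counts per gene and per repeat element; Trimmomatic, TopHat2, Bowtie2 and DESeq2 and the rn6 build are named in the submitters' processing notes without roles, and the sources used here give no counter, strand setting or treatment of multi-mapped reads. Libraries were TruSeq poly(A) RNA, per the labels' protocols. Of the gene table, 26 rows whose symbols had become calendar dates (0.286 to 0.331% of counts) were left out, leaving 17311. The edgeR 4.0.16 quasi-likelihood test (R 4.3.3; filterByExpr, TMM, Benjamini-Hochberg adjustment over 12096 genes or 1137 repeats) was fitted on 9 poly(A) libraries, 3 per group including knockdown with ATP, with 1 mean per group, and was tested on simulated data; SE is the log2 change divided by the root of F. Named genes were Tardbp, 25 rises and 25 falls of largest fold (5 CPM or more in the higher group, no overlap), the 15 with most reads gained and lost, the 20 with most reads in controls, and per list up to 4 rises, 4 falls and 1 gene that did not pass; exceptions are stated. Left out of the rankings by fold and by reads gained or lost were symbols beginning LOC, RGD, AABR, Olr or Mir. Symbols beginning Rn or AC with a digit, symbols holding -ps and Y-linked genes were left out too. Members, 55 lists and 13 symbol families were chosen with earlier results of these data known. Promoters came from RefSeq (GRCr8) and were matched by symbol, as 250 bases before the start. DESeq2 1.42.0, other scalings, filters and leaving out each library were tried. Results on a few single genes are not reported here.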

Additional observations from a re-analysis of the deposited data

How the results depend on the processing

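Counts of genes that rose or fell kept within 1.5 times under DESeq2, RLE and upper-quartile scaling and both other filters. With total-count scaling 3427 rose, 579 at least 2-fold, and 1436 fell; with only the 6 compared libraries 1300 rose. Without each library in turn 1400 to 2089 genes rose and 1687 to 2342 fell, 297 to 476 and 537 to 648 of them at least 2-fold. For repeats, DESeq2 called 6 rises and 26 falls, total-count scaling and only the 6 libraries 0 and 0, library sizes from gene counts gave 0 and 1, and leave-one-out fits 0 to 5 and 0 to 38; the fit without ribosomal RNA elements was added after seeing the data. The cause was not tested. Same-numbered libraries did not deviate together (correlations -0.121, 0.0233 and -0.111), and with the replicate number as a block 1669 genes rose and 1920 fell, and 1 and 2 repeats. Among genes that did not pass, the sign changed with total-count scaling for Fth1 (0.042), Gfap (0.073), Keap1 (0.0038) and Srf (0.086). It also changed when single libraries were left out for Gfap (-0.27 to 0.021), Ikzf1 (-0.44 to 0.0072) and Pecam1 (-0.9997 to 0.36).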

Other observations

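Some genes were counted only after knockdown. Among the 12096 tested genes, 11 had 0 counts in all 3 scrambled libraries (67465091 gene counts). Of these, 10 had counts in every knockdown library and at least 20 in all. No tested gene showed the reverse over 65451174 counts. The low-count filter also used the knockdown libraries with ATP, on which a gene silent in controls could pass. A gene silent after knockdown with and without ATP had only the scrambled libraries to pass on. The directions are therefore not comparable, and the part of the filter was not tested. The 10 genes were chosen after their values were seen and carry no test of their own. RGD1309870, whose current symbol is Spmip7, had 194, 273 and 241 counts after knockdown, or 8.04, 17.5 and 8.77 CPM, at least 236-fold above the floor of 3 counts over the control group. Its tested neighbours Zpbp (log2 0.68, edgeR adjusted p = 0.496) and Ikzf1 (-0.21, 0.686) did not pass. Knockdown libraries with ATP had a mean of 6.02 CPM for RGD1309870. The next were Plvap, an endothelial diaphragm gene, with 22, 21 and 21 counts and at least 20.8-fold, Kcnj6, a potassium channel gene, with 25, 26 and 6 counts and at least 20.1-fold, and Coro2a, an actin-binding protein gene, with 22, 25 and 10 counts and at least 19.8-fold. The other 6 lay between at least 7.12-fold (Tppp2) and at least 18.7-fold (Vstm5).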
